A study of Mus musculus with 16 samples.

Results

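The genes described here lie on mouse chromosome 11 around Il13, the gene named in the label of the knockout mice. Il13 was listed at chr11:53631323-53634702 on the minus strand of mm10. A gene was a member when its midpoint lay within 10 Mb of the Il13 midpoint, between 43.63 and 63.63 Mb, and when it reached 1 RPKM (reads per gene length and library total) in at least 4 of the 16 libraries. Il13, Lyrm7, Uqcrq, Pmp22 and genes named Mrp, Nduf, Psm, Slc25, Rpl, Rps or Col were left out by name. The window held 319 listed genes, 159 of which passed the filter, and 154 were members, out of 10171 tested and 23440 listed genes in the whole data set. Of the members, 57 lay on the centromeric side of Il13 and 97 on the telomeric side.

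The libraries came from gastrocnemius muscle, a calf muscle, of 20-week-old male C57Bl6/J mice, with 4 mice in each of 4 groups. The groups were Il13-/- (KO) untrained, wild-type (WT) untrained, KO trained and WT trained, where training was daily treadmill running for 5 weeks. Polyadenylated RNA was sequenced with a stranded kit. The label Il13-/- names no promoter or cell type, and the labels do not state how the allele was made, its backcross history or whether WT mice were littermates. All 4 groups came from separate mice, so the genotype difference was measured once in untrained and once in trained animals. In the labels and headers, mouse and library numbers ran in separate blocks for WT and KO. A difference that follows this order would be shared by both states and cannot be told apart from genotype.

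Il13 encodes a type 2 cytokine made mainly by T helper cells and innate lymphoid cells, which signals through a receptor holding the IL-4 receptor alpha chain and through STAT6. In the mouse it sits in a cytokine cluster with Il4 and Il5, and the neighbouring Rad50 gene carries a control region of that cluster. Genes near a knocked-out gene share its chromosome, and alleles that lie close together are usually inherited together when a line is bred. The comparison asked which expressed neighbours differed between genotypes, and how that varied with distance.

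Library totals, recovered from the RPKM steps, ranged from 16307025 to 20074677 reads, with a median of 17780533. The listed genes took 79.9 ± 1.95% of reads in KO untrained, 82.3 ± 1.57% in WT untrained, 76.7 ± 1.27% in KO trained and 78.6 ± 3.51% in WT trained libraries (SD, n = 4 each). WT trained replicate 1 was the highest of its group at 83.5%, while WT untrained libraries reached 83.3%. Il13 itself had 2, 1, 0 and 0 reads in KO untrained and 0, 1, 0 and 1 in KO trained libraries, against 0 in all 8 WT libraries. With 3 reads worth 0.125 to 0.153 RPKM, all 16 values lay under that floor, and the genotype labels could not be checked by this gene. The 5 T cell and innate lymphoid markers were all under the filter, summing to 0.166 to 0.471 RPKM in KO and 0.201 to 0.328 RPKM in WT libraries. Skeletal muscle fibre markers summed to 52980 to 60560 RPKM in KO and 52510 to 66980 RPKM in WT libraries. Over 9 cell types, 0 of 29 tested markers differed between genotypes by limma, where 0.0787% of all tested genes were called. The summed ranges of all KO and all WT libraries overlapped for each cell type. Within untrained mice, however, the fibre markers did not overlap, at 58820 to 60560 RPKM in KO and 61210 to 66980 RPKM in WT libraries, and neither did the tendon markers, at 20.2 to 34.4 RPKM in KO and 16.2 to 19.3 RPKM in WT libraries. Their part in the untrained genotype differences was not tested. In such whole-muscle RNA, fewer cells of a type and less RNA per cell cannot be told apart.

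Over both training states, 5 of 154 members differed between genotypes (3.25%), against 8 of all 10171 tested genes (0.0787%). Thg1l, Acsl6 and Tnip1 were higher in KO muscle, while Anxa6 and Fam114a2 were lower, where 0.0295% of all tested genes were called higher and 0.0492% lower. A gene was called at an adjusted p under 0.05 from limma on log2(RPKM + 0.1), with Benjamini-Hochberg adjustment over all tested genes. Of the other 3 called genes, Lyrm7, a complex III assembly factor left out by name, also lay in the window at 1.217 Mb. The remaining pair were Tecr on chromosome 8 and Pon2 on chromosome 6. Beyond the window, chromosome 11 gave 0 calls among 740 tested genes with limma, where 98 (13.2%) had an unadjusted p under 0.05, and all other chromosomes gave 2 among 9272 (0.0216%).

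The median genotype difference was -0.02 log2 over the members and -0.02 over all tested genes, and the median absolute difference was 0.062 log2 in members and 0.071 in all tested genes. An unadjusted p under 0.05 was seen for 20 members (13.0%), beside 12.2% of all tested genes. The 90th percentile of the absolute difference was 0.215 log2 in members and 0.181 in all tested genes.

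**Figure D1:**
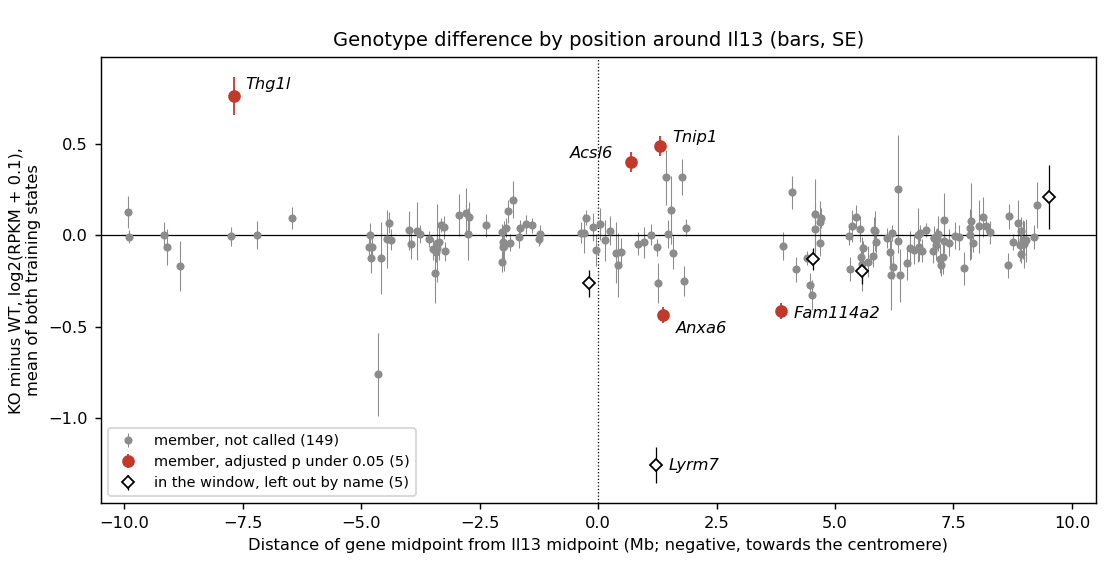
Genotype difference of each gene in the window, KO minus WT on the log2(RPKM + 0.1) scale averaged over both training states (vertical axis, bars SE), against the distance of its midpoint from Il13 in Mb (horizontal axis). Red points are the 5 called members, grey points the other members, and open diamonds the 5 genes left out by name; 4 of the 5 red points lie between 0.7 and 3.868 Mb on the telomeric side.

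Thg1l encodes an enzyme that adds a guanosine to the 5′ end of histidine tRNA. It lay at chr11:45948154-45955494 on the minus strand, 7.681 Mb from Il13 towards the centromere. Its levels were 3.96, 2.68, 3.94 and 3.36 RPKM in KO untrained mice, against 1.56, 1.77, 1.27 and 1.33 RPKM in WT untrained mice. In the trained mice it had 2.15, 2.35, 2.97 and 2.61 RPKM in KO and 2.35, 1.79, 2.07 and 1.67 RPKM in WT muscle. Every untrained KO library was above every untrained WT library, while the trained groups overlapped. The difference was 1.17 log2 (SE 0.146) in untrained mice, or 2.26-fold, with an adjusted p of 0.00181 by limma. In trained mice it was 0.34 log2 (95% interval 0.03 to 0.65), with an adjusted p of 0.315. Over both states it was 0.76 log2 (SE 0.103, adjusted p 0.00243 by limma). Thg1l was the least expressed of the called members, with 20 to 67 reads in a library, and 56 uncalled members lay between it and the next called gene.

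Acsl6 encodes a long-chain acyl-CoA synthetase, which activates fatty acids for use in lipids and oxidation. It was the called member nearest to Il13, at chr11:54303824-54361539 on the plus strand, 0.7 Mb towards the telomere. Its levels were 13.4, 13.2, 13.8 and 14.0 RPKM in KO untrained mice, against 12.8, 10.4, 10.4 and 9.97 RPKM in WT untrained mice. With training it had 13.3, 12.8, 12.4 and 13.0 RPKM in KO and 10.01, 9.71, 8.09 and 9.14 RPKM in WT muscle. KO and WT libraries did not overlap within either training state, and the KO values lay in a narrow band. The difference over both states was 0.40 log2 (SE 0.056), or 1.32-fold (adjusted p 0.00263 by limma). Within trained mice it was 0.48 log2 (adjusted p 0.0229), and within untrained mice 0.33 log2 (SE 0.079, adjusted p 0.655). Of its 9914 annotated exon bases, 202 overlap the antisense gene Gm12224, and the labels do not state whether reads were counted by strand.

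Tnip1 encodes a ubiquitin-binding protein that restrains NF-κB signalling, and it was the only member whose 8 KO values all lay above its 8 WT values. The gene spans chr11:54910787-54962940 on the minus strand, 1.304 Mb from Il13. Its levels were 18.0, 16.2, 18.5 and 16.8 RPKM in KO untrained mice, against 12.5, 12.4, 11.9 and 12.4 RPKM in WT untrained mice. The trained mice had 15.7, 14.9, 15.5 and 17.5 RPKM in KO and 13.4, 10.7, 10.5 and 10.8 RPKM in WT muscle. The highest WT library was WT trained replicate 1, and the lowest KO library was still above it. The difference was 0.49 log2 (SE 0.054) over both states, or 1.40-fold (adjusted p 0.000201 by limma), with 0.49 log2 in untrained (adjusted p 0.0176) and 0.48 log2 in trained mice (adjusted p 0.0224).

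Anxa6, the next listed gene after Tnip1 towards the telomere, moved the other way. It encodes annexin A6, a calcium-dependent phospholipid-binding protein that takes part in repair of the muscle membrane, and it lies at chr11:54978962-55033471 on the minus strand, 1.373 Mb from Il13. Its levels were 60.5, 56.0, 59.4 and 49.8 RPKM in KO untrained mice, against 69.7, 74.3, 72.0 and 75.9 RPKM in WT untrained mice. In trained mice they were 50.0, 51.5, 53.5 and 51.7 RPKM in KO and 81.1, 70.0, 70.3 and 71.1 RPKM in WT muscle. All 8 KO libraries were below all 8 WT libraries. Over both states Anxa6 was lower in KO by a log2 difference of -0.44 (SE 0.046), a ratio of 0.739 (adjusted p 0.000118 by limma). The difference was -0.50 log2 in trained mice (adjusted p 0.00345) and -0.37 log2 in untrained mice (adjusted p 0.0482), and the untrained call was lost in 18 of 27 alternative settings. Leaving out KO untrained replicate 4, its lowest library, gave -0.32 log2 (adjusted p 0.089).

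Fam114a2 encodes a protein whose role is little known. It was the called member farthest from Il13 on the telomeric side, at chr11:57482990-57518644 on the minus strand, 3.868 Mb away and with 7 uncalled members between it and Anxa6. Its levels were 15.2, 14.2, 15.0 and 13.4 RPKM in KO untrained mice, against 18.6, 20.2, 20.2 and 20.0 RPKM in WT untrained mice. In trained mice it had 14.1, 14.3, 15.6 and 16.1 RPKM in KO and 19.8, 18.7, 19.4 and 20.3 RPKM in WT muscle. The 8 KO libraries were again all below the 8 WT libraries. The difference over both states was -0.41 log2 (SE 0.043), a ratio of 0.751 (adjusted p 0.000118 by limma). It was -0.45 log2 in untrained mice (adjusted p 0.00399) and -0.38 log2 in trained mice (adjusted p 0.0224).

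Altogether 4 members had 8 KO values apart from their 8 WT values (2.6%), against 0.059% of all tested genes. These were Tnip1 above (0.0197% of all tested genes) and Anxa6, Fam114a2 and the uncalled Cnot8 below (0.0393%). In the GENCODE M21 annotation, no exon of Thg1l, Tnip1, Anxa6 or Fam114a2 overlapped an exon of another gene.

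**Figure D2:**
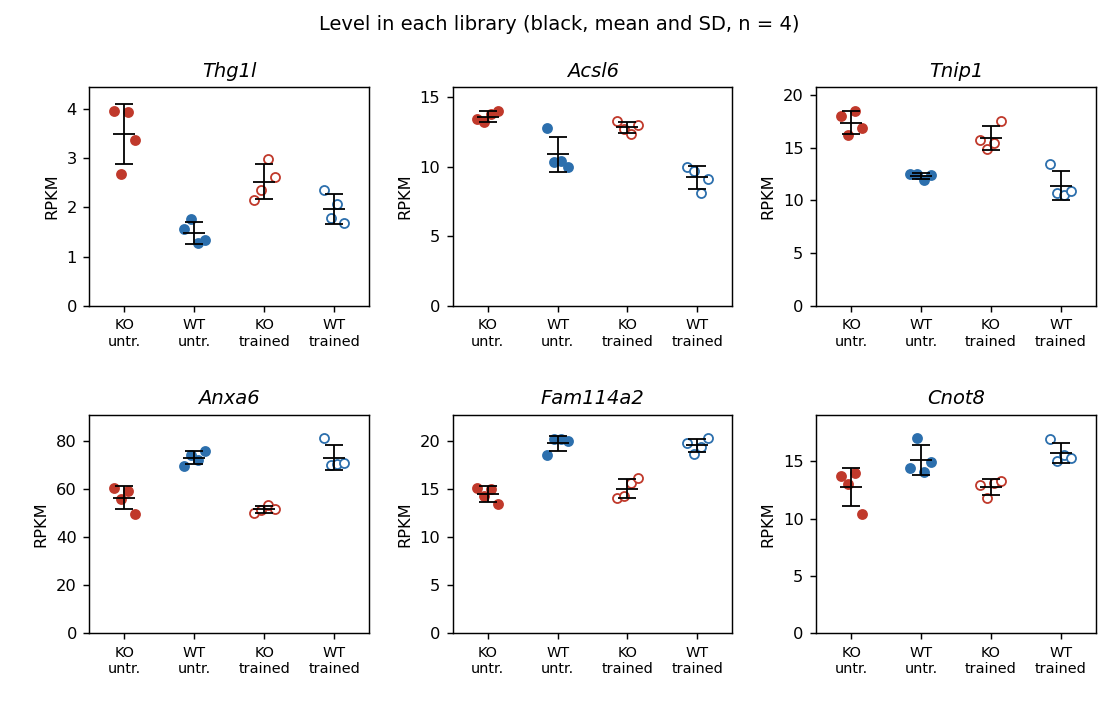
RPKM (vertical axes, from 0) of the 5 called members and of Cnot8 in each library, by group; black marks give the mean and SD of 4 mice. KO values of Tnip1 lie above all WT values, those of Anxa6, Fam114a2 and Cnot8 lie below all WT values, and Thg1l separates the genotypes only in untrained mice.

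The sequences just before the starts of the called genes are shown because STAT6, the factor that IL-13 signals through, binds palindromic sites that can be searched in them. The 250 bases before the first RefSeq start of each gene, from RefSeq's GRCm38.p6 table, are given 5′ to 3′ on the gene's strand. They were chr11:45955504-45955753 (minus) for Thg1l, chr11:54303574-54303823 (plus) for Acsl6 and chr11:54962941-54963190 (minus) for Tnip1. Capitals mark a match to TTCNNNGAA, a spacing that STAT proteins bind.
Thg1l: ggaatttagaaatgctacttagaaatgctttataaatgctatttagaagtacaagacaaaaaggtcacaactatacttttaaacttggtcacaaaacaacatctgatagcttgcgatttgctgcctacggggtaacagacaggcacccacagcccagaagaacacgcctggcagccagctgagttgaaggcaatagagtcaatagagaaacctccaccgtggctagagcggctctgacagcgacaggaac
Acsl6: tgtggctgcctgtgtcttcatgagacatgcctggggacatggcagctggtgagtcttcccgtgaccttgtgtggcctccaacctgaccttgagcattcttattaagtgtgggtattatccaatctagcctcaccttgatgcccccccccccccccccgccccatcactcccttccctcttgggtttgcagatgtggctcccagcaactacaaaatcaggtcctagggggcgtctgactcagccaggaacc
Tnip1: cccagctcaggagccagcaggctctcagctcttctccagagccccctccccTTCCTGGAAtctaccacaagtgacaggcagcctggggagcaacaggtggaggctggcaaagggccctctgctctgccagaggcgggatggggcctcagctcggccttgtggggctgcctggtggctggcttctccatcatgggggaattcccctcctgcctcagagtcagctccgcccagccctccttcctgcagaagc
The spacing preferred by STAT6, TTCNNNNGAA, was in none of the windows of these 3 genes. It was present for 6 of the 131 members matched to the table (4.58%) and for 6.76% of its 27025 genes. The shorter spacing was present for 16 of 131 members (12.2%), among them Tnip1 and, in a window at a second start inside the gene, Thg1l. It was present for 8.13% of the 27025 genes, which were not filtered by expression as the members were. The 16 include the related interferon-inducible genes Igtp, Irgm2, Tgtp1 and Tgtp2. Both motifs read the same on either strand, a match of 1 may overlap a match of the other, and a match is only a description of the letters. Anxa6 and Fam114a2 were not matched.

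Members with a small unadjusted p were counted by distance class, with the telomeric and centromeric sides apart. On the telomeric side, an unadjusted p under 0.05 was found for 5 of 12 members (41.7%) at 1 to 2.5 Mb and 6 of 12 (50.0%) at 2.5 to 5 Mb. The background was 12.2%, and the telomeric class at 0 to 1 Mb had 1 of 9 (11.1%). On the centromeric side the same distances had 1 of 16 and 1 of 27. From 5 to 10 Mb on the telomeric side, 4 of 64 members (6.25%) had such a p. The median absolute difference was 0.0615, 0.193 and 0.121 log2 for the telomeric classes at 0 to 1, 1 to 2.5 and 2.5 to 5 Mb, against 0.071 over all tested genes. These classes were set with results of the same data known, they include the called genes, and they were not tested against each other.

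The neighbours Sap30l, Larp1, Cnot8 and Gemin5, between 4.173 and 4.511 Mb on the telomeric side, were among the 20 members with the smallest p and did not pass the adjusted threshold. Cnot8, a deadenylase subunit of the CCR4-NOT complex at 4.478 Mb, had 13.7, 13.0, 14.0 and 10.4 RPKM in KO untrained mice, against 14.4, 17.0, 14.1 and 14.9 RPKM in WT untrained mice. The trained mice had 12.9, 11.8, 13.1 and 13.3 RPKM in KO and 16.9, 15.0, 15.5 and 15.3 RPKM in WT muscle. The 2 sets of 8 libraries did not overlap, though by a narrow margin of 14.0 in KO and 14.1 RPKM in WT, and the difference was -0.27 log2 (SE 0.062, adjusted p 0.257 by limma). Its neighbour Gemin5, which binds small nuclear RNAs in the SMN complex, averaged 2.10 ± 0.197 RPKM in KO and 2.67 ± 0.353 RPKM in WT muscle (SD, n = 8 each), a difference of -0.33 log2 (adjusted p 0.297 by limma). Larp1, which binds mRNAs of the translation machinery, differed by -0.12 log2 (adjusted p 0.297), and Sap30l, a Sin3 corepressor subunit, by -0.19 log2 (adjusted p 0.325). Galnt10, a transferase that starts mucin-type O-glycans and lies at 4.083 Mb, just before Sap30l, differed by 0.24 log2 (adjusted p 0.328). Of the 5 members that follow Gemin5 up to 5 Mb, Igtp (0.03 log2), Irgm2 (0.12 log2), Zfp692 (0.07 log2) and Sh3bp5l (0.09 log2) had differences above 0 and Zfp672 (-0.04 log2) below 0, and none was called by limma.

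Closer to Anxa6, Sparc, a collagen-binding matrix protein, had 191.7, 146.5, 192.9 and 125.7 RPKM in KO untrained mice, against 114.5, 115.5, 99.3 and 112.8 RPKM in WT untrained mice. The trained mice had 105.2, 116.1, 160.2 and 111.2 RPKM in KO and 117.6, 121.2, 120.1 and 100.5 RPKM in WT muscle. Untrained KO mice were thus all above untrained WT mice, with a wide spread, while trained mice overlapped, and the difference of 0.32 log2 over both states had an adjusted p of 0.297 by limma. In the same untrained mice the 4 tendon markers summed to 20.2 to 34.4 RPKM in KO and 16.2 to 19.3 RPKM in WT libraries, and the 3 adipocyte markers to 79.3 to 209.7 RPKM in KO and 55.2 to 101.4 RPKM in WT libraries. The fibro-adipogenic progenitor markers there summed to 251.2 to 316.8 RPKM in KO and 246.5 to 309.9 RPKM in WT libraries. The endothelial markers summed to 49.35 to 55.84 RPKM in KO and 47.61 to 58.39 RPKM in WT libraries. Schwann cell markers summed to 30.9 to 79.2 RPKM in KO and 22.8 to 31.2 RPKM in WT libraries. The part of these cell types in the Sparc value was not tested. Atox1, a copper chaperone next to Sparc, averaged 22.1 ± 2.25 RPKM in KO and 26.4 ± 4.20 RPKM in WT muscle (SD, n = 8 each; adjusted p 0.316). Gpx3, a secreted glutathione peroxidase beside Tnip1, averaged 80.7 ± 16.7 RPKM in KO and 95.8 ± 13.2 RPKM in WT muscle (adjusted p 0.357).

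**Figure D3:**
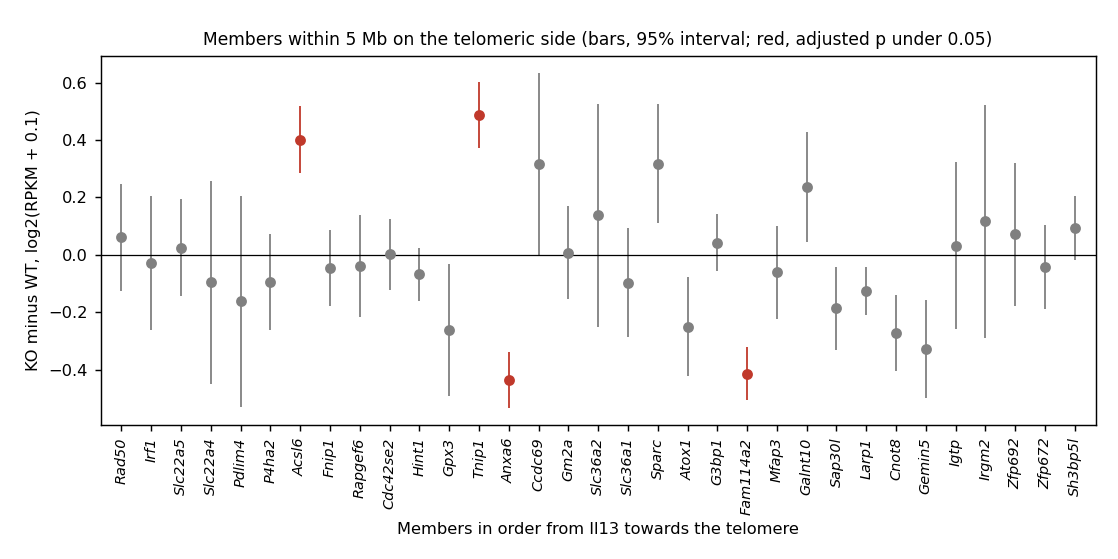
Genotype difference over both training states, KO minus WT on the log2(RPKM + 0.1) scale with 95% intervals (vertical axis), for the 33 members within 5 Mb of Il13 on the telomeric side in map order (horizontal axis). Red marks the 4 called members; the adjacent Tnip1 and Anxa6 point in opposite directions, and Sap30l, Larp1, Cnot8 and Gemin5 lie below 0, with 4 of the 5 members after them above 0.

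The genes closest to Il13 were not called. Kif3a, a kinesin-2 motor subunit whose midpoint lies 0.047 Mb away, averaged 1.04 ± 0.122 RPKM in KO and 1.11 ± 0.153 RPKM in WT muscle (SD, n = 8 each), with a difference of -0.08 log2 (95% interval -0.27 to 0.10). Rad50, a DNA double-strand break repair protein at 0.045 Mb, averaged 1.41 ± 0.197 RPKM in KO and 1.34 ± 0.121 RPKM in WT muscle, a difference of 0.06 log2 (-0.12 to 0.25). Irf1, an interferon-responsive transcription factor at 0.141 Mb, differed by -0.03 log2 (-0.26 to 0.21). Averaged over both states, the median absolute difference of 14 members within 1 Mb was 0.054 log2, under the 0.071 of all tested genes. In untrained mice alone it was 0.114 log2, against 0.080 over all tested genes. In trained mice alone it was 0.087 log2, against 0.105. Of the 14, 11 were above 0 in untrained mice (5224 of all 10171 tested genes) and 9 below 0 in trained mice (6634 of 10171). Over both states, Slc22a5, the carnitine transporter of muscle, differed by 0.03 log2 (-0.14 to 0.19), and P4ha2, a collagen prolyl 4-hydroxylase subunit, by -0.09 log2 (-0.26 to 0.07). Sept8, a septin, differed by 0.04 log2 (-0.12 to 0.20), and Aff4, a scaffold of the super elongation complex, by 0.10 log2 (0.01 to 0.18, adjusted p 0.373 by limma). The intervals of these 7 genes all ended short of the 0.40 log2 seen for Acsl6. Those of Slc22a4, a transporter of organic cations at 0.373 Mb (-0.09 log2, -0.45 to 0.26), and Pdlim4, a LIM domain protein at 0.429 Mb (-0.16 log2, -0.53 to 0.21), reached past that size. The cytokine genes Il4 and Il5 had 0 or 1 read in each of the 16 libraries.

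The calls were also counted by function, in lists chosen with earlier results of these data known. Over all tested genes, 0.0295% were called higher and 0.0492% lower. Fam114a2 was in none of the lists. Of 13 expressed genes of the cytokine locus and its flank, 1 was higher in KO (Acsl6), 0 were lower, and the median difference was 0.01 log2. Of 10 muscle structure and matrix genes, 1 was lower (Anxa6) with a median of -0.04 log2. Sgcd, which encodes delta-sarcoglycan of the dystrophin complex, differed by 0.09 log2 (95% interval -0.03 to 0.22).

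Among 19 energy, lipid and mitochondrial genes, which share Acsl6 with the locus list, 1 was higher and 0 were lower, 6 values lay above 0 and 13 below, and the median was -0.05 log2. Vdac1, the outer mitochondrial membrane channel and the most abundant member, averaged 588 ± 29.2 RPKM in KO and 595 ± 18.1 RPKM in WT muscle (SD, n = 8 each). Nt5m, a mitochondrial nucleotidase, differed by -0.17 log2 (adjusted p 0.331 by limma). Tmem11, an inner membrane protein of mitochondria, stood outside the lists and differed by -0.16 log2 (adjusted p 0.328). Of 14 autophagy, ubiquitin and protein turnover genes, 0 were called by limma, the median was 0.00 log2 and the range was -0.13 to 0.06. Sqstm1, the autophagy receptor p62, differed by -0.09 log2 (adjusted p 0.56), and the autophagy kinase gene Ulk2 by 0.05 log2 (adjusted p 0.552). In the same list Trim7, whose E3 ligase binds glycogenin, differed by -0.13 log2 (adjusted p 0.546), the lowest value of the 14.

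Of 11 RNA and translation genes, 1 was higher (Thg1l) with a median of -0.05 log2. Zswim7, a recombination repair protein placed in that list, differed by -0.16 log2 (adjusted p 0.352 by limma). Of 8 interferon-inducible and immune genes, 1 was higher (Tnip1) with a median of -0.04 log2. Tgtp1, an interferon-inducible GTPase, averaged 0.835 ± 0.319 RPKM in KO and 1.47 ± 0.468 RPKM in WT muscle (SD, n = 8 each), a difference of -0.76 log2 (95% interval -1.24 to -0.28, adjusted p 0.297 by limma). Its near-identical copy Tgtp2 differed by -0.12 log2 and was not called, and reads shared between the copies make both values uncertain. None of 21 signalling and transcription genes was called by limma (median -0.01 log2), and Phf15, which encodes a chromatin reader, differed by 0.19 log2 (adjusted p 0.45). The single histone gene, Hist3h2a, differed by -0.18 log2 (adjusted p 0.323), and 708 of its 2146 annotated exon bases overlap Trim17 on the same strand. Agxt2l2, a phosphohydroxylysine lyase outside the lists, differed by -0.14 log2 (adjusted p 0.332).

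In untrained mice alone, 4 members were called (2.6%), against 0.0492% of all tested genes. Thg1l and Tnip1 were higher in KO (background 0.0197%), Anxa6 and Fam114a2 were lower (background 0.0295%), and the remaining called gene of all 10171 was Lyrm7, so that every gene called in untrained mice lay in the window. In trained mice, 4 members were called (2.6%), against 0.0885% of all tested genes, namely Tnip1 and Acsl6 higher (background 0.0197%) and Anxa6 and Fam114a2 lower (background 0.0688%). The other 5 genes called in trained mice were Lyrm7, Fhl1, Hspb6, Tecr and Pon2. Tnip1, Anxa6 and Fam114a2 were called in both sets of mice. These counts from 4 mice a group moved with single libraries. The untrained count was 2 without KO untrained replicate 1 or 3, or without any 1 of the 4 WT untrained replicates. In those 6 settings Tnip1 and Anxa6 were lost, with adjusted p of 0.063 to 0.108 for Tnip1, while Thg1l and Fam114a2 were called without any 1 of the 16 libraries. Anxa6 was also lost without KO untrained replicate 2 or 4, or without any trained library other than WT trained replicate 1. The trained count was 1 without KO trained replicate 1 or WT trained replicate 3 or 4, and 2 without KO trained replicate 2 or 4. Anxa6 was called in trained mice without any 1 of the 16 libraries, and the adjusted p of lost calls was 0.0716 to 0.116 for Acsl6, 0.0561 to 0.0915 for Tnip1, also lost without WT trained replicate 2, and 0.0636 to 0.116 for Fam114a2. The count over both states stayed at 5 whichever of the 16 libraries was left out. Counts over all tested genes in these left-out settings are not given here.

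KO and WT values did not overlap for 14 members in untrained mice (9.09%, beside 3.95% of all tested genes) and for 9 in trained mice (5.84%, beside 8.48%). They did so in the same direction in both sets for 5 members (3.25%, beside 0.226%), which were Acsl6, Tnip1, Anxa6, Fam114a2 and Cnot8. As a description over 154 genes of the same libraries, the untrained and trained differences correlated with r = 0.25, against -0.01 over all tested genes, and at 0.04 over the uncalled members. By class on the telomeric side r was 0.10 for 9 members at 0 to 1 Mb, 0.235 for 12 at 1 to 2.5 Mb, 0.83 for 12 at 2.5 to 5 Mb and -0.29 for 64 at 5 to 10 Mb. On the centromeric side it was -0.26 for 5, 0.35 for 16, 0.66 for 27 and 0.91 for 9 members over the same distances, and called genes are included. The rank correlation (Spearman) was 0.095 for those 27 members and 0.767 for those 9, with the same sign in 15 and 5 of them. It was 0.825 for the 12 telomeric members at 2.5 to 5 Mb. Among the 27, the uncalled Tgtp1 had the largest absolute difference in each state, at -0.69 log2 in untrained and -0.83 log2 in trained mice. Among the 9, the called Thg1l had the largest in each state, at 1.17 log2 in untrained and 0.34 log2 in trained mice. The sign was the same in both sets of mice for 55.8% of members and 53.5% of all tested genes.

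**Figure D4:**
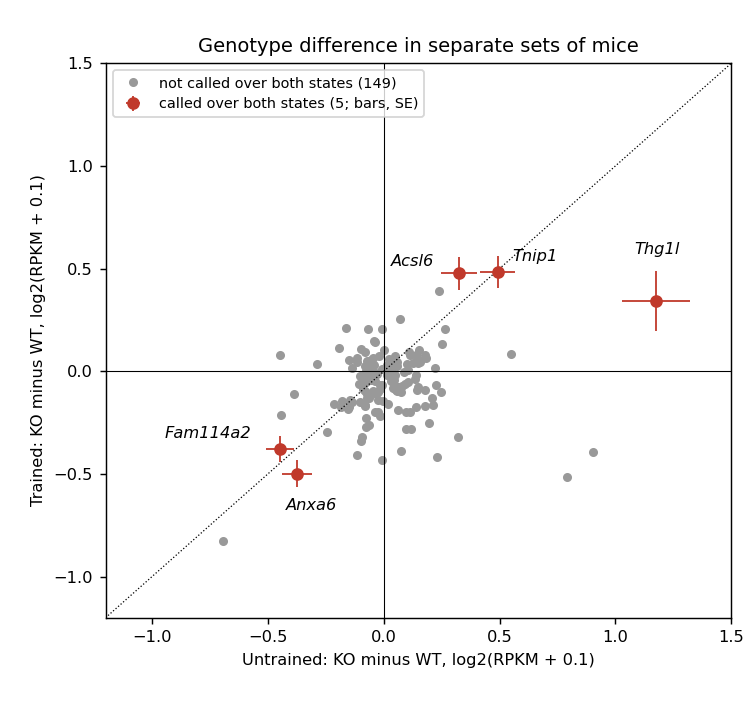
Genotype difference (KO minus WT, log2(RPKM + 0.1)) of the 154 members in trained mice (vertical axis) against that in untrained mice (horizontal axis), from separate sets of animals; the dotted line marks equal values. The 5 called members (red, bars SE) lie in the same-sign quadrants, with Thg1l far to the right of the line.

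The difference between the genotype effects of trained and untrained mice was called for 0 members and 0.0% of all tested genes by limma, and for 0 members by limma-voom on recovered reads. An unadjusted p under 0.05 was seen for 13 members (8.44%), beside 8.4% of all tested genes. For Thg1l the trained difference minus the untrained one was -0.83 log2 (SE 0.207, adjusted p 0.526 by limma). Hist3h2a averaged 3.15 ± 0.287 RPKM in KO and 4.32 ± 0.246 RPKM in WT untrained mice, and 3.56 ± 0.318 RPKM in KO and 3.37 ± 0.308 RPKM in WT trained mice (SD, n = 4 each), a change of 0.52 log2 in the genotype difference (adjusted p 0.526). Slc36a2, an amino acid transporter near 1 RPKM, changed by -1.31 log2 (SE 0.368), and Flii, an actin-remodelling protein, by -0.31 log2 (SE 0.092), both with an adjusted p of 0.526. None of these 4 values passed the adjusted threshold.

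Training itself was called for 0 members within KO mice and for 0 within WT mice by limma, beside 0.0% and 0.187% of all tested genes, and limma-voom also called 0 in each. An unadjusted p under 0.05 was seen for 20 members in KO (13.0%, beside 13.7% of all tested genes) and for 19 in WT mice (12.3%, beside 11.8%). WT trained replicate 1 had the highest share of reads in listed genes. Without it, 1 member was called for training in KO and 5 in WT mice, where 106 and 272 of all tested genes were called. The member called in KO mice was the polyubiquitin gene Ubb, and those called in WT mice were Ubb, Hist3h2a, Zkscan17, Gnb2l1 and Gm1821_1, named after their values were seen.

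At this depth most members were measured closely. The 95% interval over both states lay within -0.5 to 0.5 log2 for 137 of 154 members, the median SE was 0.075 log2 in members and 0.073 in all tested genes, and only Thg1l and Tgtp1 differed by more than 0.5 log2. The members just inside the window were Pwwp2a (9.931 Mb, 0.13 log2) and Ttc1 (9.894 Mb, -0.01 log2) on the centromeric side and Tvp23b (9.254 Mb, 0.16 log2) and Trim16 (9.199 Mb, -0.01 log2) on the telomeric side. Just outside lay C1qtnf2 (-0.12 log2), Slu7 (-0.08 log2), Cox10 (-0.08 log2) and Elac2 (-0.01 log2), none of them called by limma. At the filter, the fourth highest library was 1.05 RPKM for Zfp879 and Rapgef6, just inside, and 0.959 for Adam19 and 0.943 RPKM for Zfp354b, just outside. Of 158 window genes under the filter and not left out by name, 78 were at 0 in every library and none was called when all 17402 genes with reads were fitted. That fit called 9 genes in all and the same 5 members.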

How the data were processed

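The deposited table holds RPKM values of 23440 genes in 16 libraries, made by the authors with the mm10 build per the submitters' processing notes; the aligner, counter and annotation were not given in the sources used here. Whole reads were recovered from the RPKM steps, with the shortest gene length that made every value whole within 0.01 read. This held for 100% of tested values, but as the rule of choice it is no check of the counts. The 10171 genes with at least 1 RPKM in 4 libraries were tested by limma 3.58.1 in R 4.3.3 (trend, robust) on log2(RPKM + 0.1), with 1 mean per group over all 16 libraries. Contrasts were KO minus WT over both training states, within each state and their difference, and training within genotype, with Benjamini-Hochberg adjustment at 0.05. Fold changes on this scale understate those of low genes. The p-values measure the spread between mice, 4 in each group. The fits were checked on simulated data.

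Promoter sequences came from RefSeq (GRCm38.p6), where 131 of 154 members matched, 10 through an older symbol, and exon overlaps from GENCODE M21. The members, gene lists, distance classes and markers were chosen with earlier results of these data known. Genes were named when among the 20 smallest p-values over both states, among the 6 nearest Il13 on each side, or leading a contrast, list or edge. Alternatives covered the pseudocount, filter, normalization, library weights, limma-voom on recovered reads and a replicate block. They also covered fits of only the groups compared, an adjusted p threshold of 0.1, and each library left out. The share of reads in listed genes was added as a covariate after seeing the data.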

Additional observations from a re-analysis of the deposited data

Results flagged for a closer look

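In 10 of 132 groups of 4 libraries, taken over 33 named genes, the highest or lowest library lay apart from the other 3 by more than Dixon's 95% critical value; chance alone flags about 1 group in 20. WT trained replicate 1 was the high library for Tnip1 at 13.4 RPKM (others 10.5 to 10.8), Anxa6 at 81.1 RPKM (70.0 to 71.1), Atox1 at 30.7 RPKM (21.2 to 22.7) and Tmem11 at 31.3 RPKM (24.0 to 24.8). Among untrained WT mice, replicate 3 was low for Tnip1 at 11.9 RPKM (12.4 to 12.5), for Sparc at 99.3 RPKM (113 to 116) and for Slc36a2 at 0.442 RPKM (0.701 to 0.747), and replicate 1 was low for Fam114a2 at 18.6 RPKM (20.0 to 20.2). In untrained KO mice, Nt5m was high in replicate 2 at 10.8 RPKM (9.48 to 9.66) and Sqstm1 in replicate 1 at 276 RPKM (252 to 255).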

How the results depend on the processing

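The 5 calls over both training states held in all settings in which the gene was tested, with adjusted p at most 0.0153 for Thg1l, 0.0233 for Acsl6, 0.000963 for Tnip1, 0.000942 for Anxa6 and 0.000942 for Fam114a2. The settings include a threshold of 0.1, at which a call made at 0.05 cannot be lost. A filter at 5 RPKM removed Thg1l and left 4 calls. The single-state counts moved more. Fitting only the groups compared called 2 members in untrained and 1 in trained mice. Leaving out 1 library gave 2 to 4 members in untrained mice, 1 to 4 in trained mice, 0 to 1 for training in KO and 0 to 5 for training in WT mice. For the genotype counts here, and those with the replicate block below, no count over all tested genes is given as background. Training in WT mice called 5 members (of 329 genes in all) with library weights, 3 (of 156) with quantile normalization, 1 (of 78) with the share of reads as covariate, 1 (of 136) at an adjusted p under 0.1 and 5 (of 272) without WT trained replicate 1. The cause of these moves was not tested. The untrained Anxa6 call was lost in 18 of 27 settings, Acsl6 in trained mice in 7, Tnip1 in 6 in each state, and Fam114a2 in 1 in untrained and 6 in trained mice. With the replicate block, 5 members were called over both states, 3 in untrained and 3 in trained mice. The numbers were not taken as pairs, since correlations of same-numbered deviations were not all over 0.1, running from 0.052 to 0.442 between KO trained and KO untrained mice and from -0.182 to 0.201 between the other groups. Among uncalled genes, 3 changed sign. Sqstm1 was 0.0166 log2 with quantile normalization. Irf1 was 0.0405 log2 with library weights, 0.0261 log2 with the covariate and -0.0872 to 0.0187 log2 over left-out libraries. Slc22a5 was -0.0056 log2 with library weights and -0.0404 to 0.067 log2 over left-out libraries. The SE over both states was 0.292 log2 for Rasd1 and 0.226 log2 for Tgtp1, the largest of the members.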
